A study of Mus musculus with 12 samples.

Results

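The genes described here are 33 genes of protein folding, quality control and the unfolded protein response in the endoplasmic reticulum (ER), taken by symbol from a deposited table of 37620 gene identifiers. All 33 had a row and all 33 passed the low-count filter that left 14616 genes for testing. RNA was sequenced from bone marrow-derived macrophages of C57BL/6 mice in primary culture at day 7. There were 4 groups of 3 libraries, namely hypoxia (1% oxygen) with 25 mM lactate, hypoxia with 25 mM NaCl, normoxia with 25 mM lactate and normoxia with 25 mM NaCl, so the salt load was present in the groups without lactate. No group carried a genetic change, and the length of the treatment is not given in the sources used here. Nothing in the labels ties the 3 libraries of a group to different mice or dishes. The p-values below therefore measure spread among libraries that the labels do not show to be independent.

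Proteins that enter the ER are folded by chaperones of the HSP70 and HSP90 families with their J-protein partners, are given disulphide bonds by protein disulphide isomerases, and, if they carry sugars, cycle through calnexin and calreticulin. The isomerases are re-oxidised by the ER oxidases, which pass electrons to molecular oxygen. When unfolded proteins accumulate, the sensors ATF6, IRE1 (gene Ern1) and PERK (gene Eif2ak3) start the unfolded protein response, in which ATF6 and spliced XBP1 raise the transcription of chaperones and of ER-associated degradation genes, and PERK slows translation and favours ATF4. In macrophages the IRE1-XBP1 branch is also known to take part in cytokine production.

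Library totals over genes ran from 22705978 to 49885085 reads. The library hypoxia-lactate 3 stood apart from the other 11: it had at least 10 counts in 11437 genes against 13198 to 14767 in the others, and mitochondrially encoded genes took 0.486% of its counts against 2.04% to 4.75%. The common coefficient of variation between libraries of a group was 38.2% with it and 24.3% without it, and results are given both ways where they differ. The oxygen labels were checked on Egln3, a prolyl hydroxylase gene induced by low oxygen, which stood at 101 to 142 CPM (the gene's count scaled to library size, with TMM scaling) in the 6 hypoxia libraries and 3.15 to 7.90 CPM in the 6 normoxia libraries, and on Vegfa, the angiogenic growth factor, which stood at 181 to 687 CPM in hypoxia and 37.9 to 93.2 CPM in normoxia. All 8 macrophage markers tested were present, with a summed level of 33206 to 48924 CPM, most of it Lyz2 (22877 to 39859 CPM). The lowest of them were Mertk, at 6.19 to 34.0 CPM, and Fcgr1, at 2.73 to 29.2 CPM. Of 11 markers of B and plasma cells, which have a large ER, 6 were tested and Ms4a1 was at 0 in all libraries. Their summed level was 199 to 1152 CPM in hypoxia-lactate, 263 to 590 CPM in hypoxia-NaCl, 220 to 476 CPM in normoxia-lactate and 180 to 499 CPM in normoxia-NaCl, most of it Sdc1, which macrophages also make. Ighm, the antibody heavy chain of B cells, stood at 21.1 to 26.4 CPM in hypoxia-lactate, 32.1 to 57.5 CPM in hypoxia-NaCl, 15.2 to 16.2 CPM in normoxia-lactate and 18.0 to 23.2 CPM in normoxia-NaCl, and Igkc at 1.54 to 6.17 CPM over all libraries. The part of such cells in the results below was not tested. In bulk RNA, fewer cells of a type and less RNA per cell cannot be told apart.

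Of the 33 genes, Ero1l alone passed the threshold, a Benjamini-Hochberg adjusted p under 0.05 over all tested genes in edgeR's quasi-likelihood test. It rose with hypoxia in lactate, with hypoxia in NaCl, with both treatments together against neither, and in the average of both hypoxia comparisons. The chaperones, the other disulphide isomerases, the stress sensors and the degradation genes did not pass it in any of the 7 comparisons with all 12 libraries. Over all genes, 0.226% were called for hypoxia with lactate, 0.281% for hypoxia with NaCl, 1.61% for both against neither and 1.38% for the averaged hypoxia effect, so 1 call in 33 genes is a count too small to set against these shares. At an unadjusted p under 0.05 in edgeR, 7 of the 33 genes (21.2%) were higher and 0 lower for hypoxia with lactate, beside 9.3% higher and 5.32% lower of all tested genes. With NaCl 2 (6.06%) were higher and 0 lower, beside 3.29% and 3.2% of all genes, and for the averaged effect 5 (15.2%) were higher and 0 lower, beside 8.48% and 6.69%. With limma-voom and quality weights, 2 of the 33 genes were called for hypoxia with lactate, 2 for hypoxia with NaCl and 5 (15.2%) for the averaged effect, beside 5.04%, 3.59% and 15.1% of all genes. DESeq2 called 2 (6.06%) for the averaged effect, beside 5.95%. The median log2 change of the 33 genes was 0.18 for hypoxia with lactate and 0.00 for hypoxia with NaCl, beside -0.03 and 0.01 over all tested genes, and the median standard error (SE) of a member was 0.22 in both. In edgeR without hypoxia-lactate 3, fewer genes were higher for hypoxia with lactate at an unadjusted p under 0.05. They were 1 disulphide isomerase or oxidase, 1 of the sensors and Xbp1, 1 degradation gene and 1 other lumenal stress-induced protein. In each role 0 were lower, beside 1007 higher and 1121 lower of 15088 genes. With NaCl 1 gene of the glycoprotein folding cycle was then lower.

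**Figure D1:**
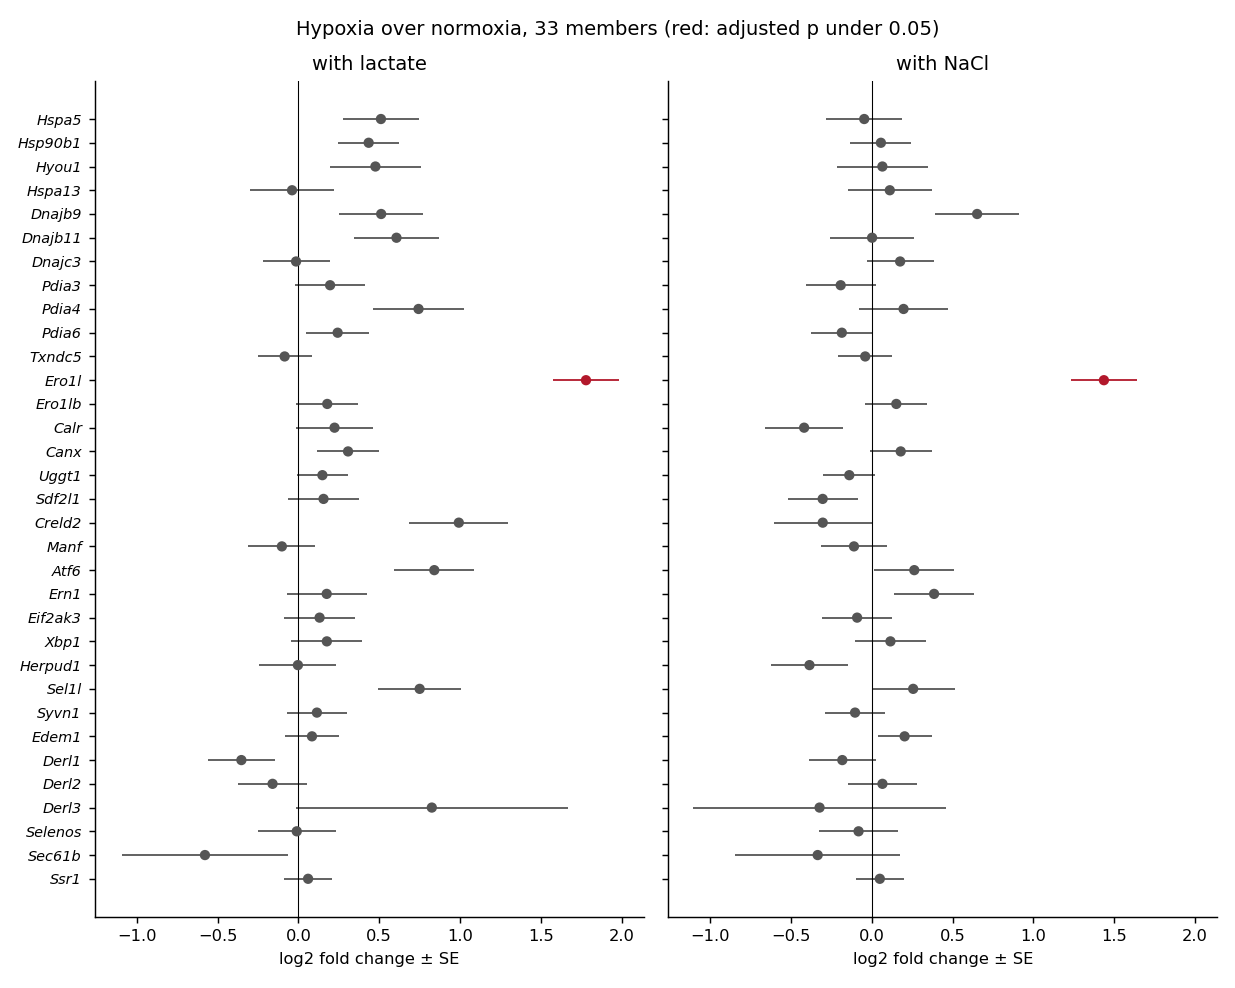
Log2 fold change of each of the 33 genes (rows, ordered by role) for hypoxia over normoxia in lactate (left panel) and in NaCl (right panel), from the fit over all 12 libraries, 3 per group. Points are fitted values and bars their SE. Ero1l, in red, lies at 1.78 with lactate and 1.44 with NaCl, and the other 32 genes, in grey, lie between -0.58 and 0.99 with lactate and between -0.42 and 0.65 with NaCl.

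Ero1l (ENSMUSG00000021831, Ero1a in newer annotation) encodes the ER oxidase that re-oxidises disulphide isomerases, and it is known as a hypoxia-inducible gene. It stood at 86.7, 105 and 102 CPM in the hypoxia-lactate libraries and at 60.5, 60.2 and 86.2 CPM in the hypoxia-NaCl libraries, against 24.2, 29.6 and 31.8 CPM in the normoxia-lactate libraries and 24.3, 28.2 and 23.9 CPM in the normoxia-NaCl libraries. All 6 hypoxia libraries lay above all 6 normoxia libraries, and all 3 hypoxia-lactate libraries lay above all 3 hypoxia-NaCl libraries. With lactate, hypoxia raised Ero1l 3.43-fold, a log2 change of 1.78 ± 0.20 (SE; edgeR adjusted p = 0.00321). With NaCl the rise was 2.71-fold, a log2 change of 1.44 ± 0.20 (edgeR adjusted p = 0.0116). The averaged hypoxia effect was 1.61 ± 0.14 on the log2 scale (edgeR adjusted p = 0.000138), and it ranked 7 of 14616 genes by p and 56 of the 163 risen genes by size. Hypoxia with lactate against normoxia with NaCl gave a log2 change of 1.94 ± 0.21 (edgeR adjusted p = 0.000814).

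The averaged call for Ero1l was made in all 19 alternatives tried. The call for hypoxia with NaCl was lost when hypoxia-NaCl 3 was left out (log2 change 1.24, edgeR adjusted p = 0.0638) or when normoxia-NaCl 1, 2 or 3 was (1.40, 1.51 and 1.38; edgeR adjusted p = 0.0864, 0.0522 and 0.115). That for hypoxia with lactate was lost without normoxia-lactate 1 (1.67, edgeR adjusted p = 0.0546) and in a fit of only the groups compared (1.77, edgeR adjusted p = 0.133). Without hypoxia-lactate 3 the values were 1.75 ± 0.19 with lactate and 1.43 ± 0.17 with NaCl (edgeR adjusted p = 0.000946 and 0.00109).

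**Figure D2:**
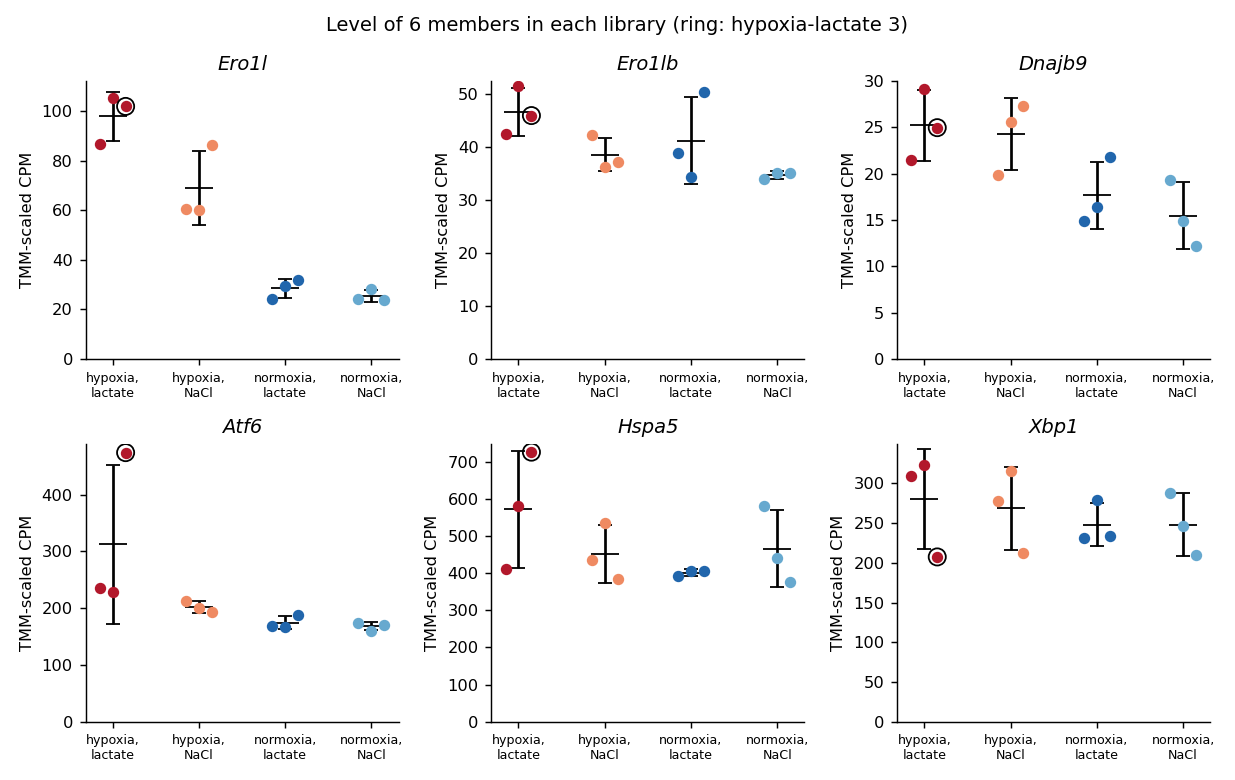
Level of 6 genes in each library, in TMM-scaled CPM on axes that start at 0. Points are libraries, bars the mean ± SD of the 3 libraries of a group, and the ring marks hypoxia-lactate 3. Ero1l separates the hypoxia libraries (60.2 to 105 CPM) from the normoxia libraries (23.9 to 31.8 CPM), and Atf6 and Hspa5 are highest in hypoxia-lactate 3.

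Lactate did not change Ero1l past the threshold at either oxygen level. In hypoxia the change was 0.51 ± 0.20 on the log2 scale (edgeR adjusted p = 0.432), and in normoxia it was 0.16 ± 0.20 (edgeR adjusted p = 1.00). The difference between these changes, the interaction, was 0.34 ± 0.28 (edgeR adjusted p = 0.902). Among 5 osteoclast markers, Ctsk, a protease also made by macrophages, was likewise highest in hypoxia-lactate. It stood at 237 to 550 CPM there and 122 to 157 CPM in hypoxia-NaCl. Acp5 overlapped between these groups (40.6 to 70.7 and 34.0 to 46.2 CPM), as did Ocstamp (0.237 to 2.37 and 1.03 to 1.83 CPM). Oscar was at most 0.188 CPM in any library. The summed level of the 5 osteoclast markers was 278 to 621 CPM in hypoxia-lactate, 158 to 201 CPM in hypoxia-NaCl, 129 to 186 CPM in normoxia-lactate and 82.8 to 134 CPM in normoxia-NaCl, with Calcr at 0 throughout. Whether osteoclasts were present, or had a part in the result, was not tested.

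The paralogue Ero1lb (ENSMUSG00000057069), the oxidase best known from insulin-producing cells, did not pass the threshold in any comparison. Ero1lb stood at 42.5, 51.5 and 45.9 CPM in hypoxia-lactate, 42.2, 36.3 and 37.2 CPM in hypoxia-NaCl, 38.9, 34.4 and 50.4 CPM in normoxia-lactate, and 34.0, 35.2 and 35.0 CPM in normoxia-NaCl. The hypoxia and normoxia libraries overlapped in lactate and lay apart by little in NaCl. Its log2 change was 0.18 ± 0.19 for hypoxia with lactate and 0.15 ± 0.19 for hypoxia with NaCl (edgeR adjusted p = 0.682 and 0.988). Per kilobase of exon, the paralogues had near levels in normoxia-NaCl, 4.82 CPM for Ero1l and 5.22 CPM for Ero1lb.

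The sequences before the starts of both oxidase genes are shown because Ero1l was called and its paralogue was not. They are from the RefSeq promoter table of build GRCm38.p6, 250 bases up to the annotated start, read 5′ to 3′ on the gene's strand, Ero1l at chr14:45318573-45318822 (minus strand) and Ero1lb at chr13:12565633-12565882 (plus strand). In Ero1l the capitals mark the core letters of the hypoxia response element, ACGTG or GCGTG on either strand, and in Ero1lb they mark the fixed letters of the ER stress response element.
Ero1l: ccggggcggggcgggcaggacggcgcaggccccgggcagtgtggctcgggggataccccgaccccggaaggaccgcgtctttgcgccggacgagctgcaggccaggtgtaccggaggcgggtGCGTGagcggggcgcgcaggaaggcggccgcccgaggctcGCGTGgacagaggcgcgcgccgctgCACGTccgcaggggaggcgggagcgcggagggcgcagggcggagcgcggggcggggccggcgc
Ero1lb: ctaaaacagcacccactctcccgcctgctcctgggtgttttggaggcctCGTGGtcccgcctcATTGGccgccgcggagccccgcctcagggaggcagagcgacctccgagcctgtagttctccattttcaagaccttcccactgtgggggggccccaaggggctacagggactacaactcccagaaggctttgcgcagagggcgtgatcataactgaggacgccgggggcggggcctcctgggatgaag
Ero1l held 3 core matches, which begin 128, 88 and 63 bases before the start, and Ero1lb held 1, at 48 bases (not capitalised). Of all 32851 windows of 300 bases in the table, 43.8% held at least 1 core match and 8.93% held at least 3, with a palindrome counted on both strands. Among the other members, Calr, Derl3, Pdia6, Ssr1 and Txndc5 also had a window with at least 3. None of these was called by edgeR with all libraries. A match is a description of the letters and not a bound site.

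The lumenal chaperones of the HSP70 and HSP90 families gave no call by edgeR with all libraries. Hspa5 (BiP), the main ER HSP70 and the classic marker of ER stress, stood at 411, 581 and 726 CPM in hypoxia-lactate and 435, 535 and 384 CPM in hypoxia-NaCl, against 392, 407 and 406 CPM in normoxia-lactate and 581, 442 and 376 CPM in normoxia-NaCl. With lactate all hypoxia libraries lay above all normoxia libraries, and with NaCl the groups overlapped. Its log2 change was 0.51 ± 0.24 with lactate and -0.05 ± 0.24 with NaCl (edgeR adjusted p = 0.342 and 1.00), and without hypoxia-lactate 3 the value with lactate was 0.30 ± 0.22. Hsp90b1 (GRP94), the ER HSP90, stood at 303, 344 and 464 CPM in hypoxia-lactate, 310, 324 and 294 CPM in hypoxia-NaCl, 241, 270 and 310 CPM in normoxia-lactate, and 283, 323 and 286 CPM in normoxia-NaCl. Its groups overlapped in both comparisons, with log2 changes of 0.44 ± 0.19 and 0.06 ± 0.19 (edgeR adjusted p = 0.325 and 0.999). Exons of a pseudogene, 1810014B01Rik, overlap Hsp90b1 on the other strand, and those of Gm15344 and the microRNA gene Gm25745 on the same strand. Hyou1, which exchanges nucleotide on BiP, and Hspa13, an atypical HSP70, averaged 218 ± 66 and 29.1 ± 9.1 CPM in hypoxia-lactate, against 157 ± 14 and 29.9 ± 4.6 CPM in normoxia-lactate (SD, n = 3 each). Hypoxia-lactate 3 was the highest of the 12 libraries for Hyou1, at 290 CPM, and the lowest for Hspa13, at 18.8 CPM. Without it the hypoxia-lactate means were 183 and 34.3 CPM. In NaCl the means were 152 and 30.1 CPM in hypoxia and 146 and 27.9 CPM in normoxia. Neither gene passed the threshold.

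The sequences before Hspa5 and Hsp90b1 are shown as the best-known holders of the ER stress response element, since both genes carry it and neither was called. They are printed as above from GRCm38.p6, Hspa5 at chr2:34771840-34772089 (plus strand) and Hsp90b1 at chr10:86705445-86705694 (minus strand), with the element's fixed letters in capitals.
Hspa5: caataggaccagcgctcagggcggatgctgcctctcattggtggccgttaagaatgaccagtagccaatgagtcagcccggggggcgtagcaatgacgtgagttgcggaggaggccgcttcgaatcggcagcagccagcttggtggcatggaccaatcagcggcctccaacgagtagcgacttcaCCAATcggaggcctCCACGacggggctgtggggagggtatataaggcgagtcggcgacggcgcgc
Hsp90b1: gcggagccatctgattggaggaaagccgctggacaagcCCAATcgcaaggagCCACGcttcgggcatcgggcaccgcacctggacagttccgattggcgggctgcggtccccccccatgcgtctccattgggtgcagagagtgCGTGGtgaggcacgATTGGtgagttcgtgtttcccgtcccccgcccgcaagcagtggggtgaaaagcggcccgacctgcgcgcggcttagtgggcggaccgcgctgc
The element was searched as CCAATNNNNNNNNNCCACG on both strands. It begins 65 bases before the start of Hspa5, and Hsp90b1 holds it on opposite strands, 212 and 107 bases before its start. Both stretches also hold hypoxia response element cores, which are not marked as such here. Hspa5 has ACGTG at 155 bases, and Hsp90b1 has GCGTG, on either strand, at 197 and 108 bases before the start.

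The J proteins, which bring unfolded chains to BiP, gave no call by edgeR with all libraries. Dnajb9 (ERdj4), an XBP1 target that also restrains IRE1, stood at 21.5, 29.2 and 25.0 CPM in hypoxia-lactate and 19.9, 25.6 and 27.4 CPM in hypoxia-NaCl, against 14.9, 16.4 and 21.8 CPM in normoxia-lactate and 19.3, 14.9 and 12.2 CPM in normoxia-NaCl. In NaCl all hypoxia libraries lay above all normoxia libraries, and in lactate they overlapped. Its averaged hypoxia effect was 0.58 ± 0.18 on the log2 scale with all libraries (edgeR adjusted p = 0.164) and passed the threshold without hypoxia-lactate 3, at 0.58 ± 0.16 (edgeR adjusted p = 0.0462). Dnajb11 (ERdj3), a secreted BiP partner, stood at 102, 111 and 231 CPM in hypoxia-lactate, 98.8, 91.7 and 87.8 CPM in hypoxia-NaCl, 96.9, 92.8 and 102 CPM in normoxia-lactate, and 89.6, 99.5 and 88.8 CPM in normoxia-NaCl. The high value was that of hypoxia-lactate 3. Its log2 change for hypoxia with lactate was 0.61 ± 0.26 with that library and 0.13 ± 0.13 without it (edgeR adjusted p = 0.323 and 0.701). Dnajc3 (p58IPK), a further J protein of the lumen, had log2 changes of -0.01 ± 0.21 with lactate and 0.18 ± 0.21 with NaCl.

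The sequence before Dnajb9, at chr12:44210069-44210318 (minus strand, GRCm38.p6), is shown because that gene was called with Ero1l and Atf6 for the averaged effect without hypoxia-lactate 3. The capitals mark its hypoxia response element core, a palindrome that matches on both strands.
Dnajb9: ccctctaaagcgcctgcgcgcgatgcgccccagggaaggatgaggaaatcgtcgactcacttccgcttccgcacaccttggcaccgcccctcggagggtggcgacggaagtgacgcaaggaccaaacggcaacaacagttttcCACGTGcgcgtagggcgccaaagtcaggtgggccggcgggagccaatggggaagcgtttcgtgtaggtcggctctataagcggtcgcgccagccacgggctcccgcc
Its match begins 107 bases before the start.

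The disulphide isomerases gave no call by edgeR with all libraries. Pdia4 (ERp72) had the largest change of them, 0.74 ± 0.28 for hypoxia with lactate and 0.20 ± 0.28 with NaCl (edgeR adjusted p = 0.281 and 0.988), with 62.8, 69.6 and 121 CPM in hypoxia-lactate against 52.3, 49.3 and 49.8 CPM in normoxia-lactate. Without hypoxia-lactate 3, its highest library, the change with lactate was 0.39 ± 0.22. Pdia3 (ERp57), the partner of calnexin and calreticulin, Pdia6 (P5) and Txndc5 (ERp46) had log2 changes between -0.08 and 0.24 with lactate and between -0.19 and -0.04 with NaCl. Exons of other genes on the opposite strand overlap Pdia3, Pdia6 and Txndc5.

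In the glycoprotein folding cycle, Calr (calreticulin) stood at 543, 611 and 967 CPM in hypoxia-lactate and 615, 625 and 451 CPM in hypoxia-NaCl, against 562, 655 and 599 CPM in normoxia-lactate and 889, 723 and 648 CPM in normoxia-NaCl. In NaCl all hypoxia libraries lay below all normoxia libraries, while in lactate they overlapped. Its log2 change was 0.22 ± 0.24 with lactate and -0.42 ± 0.24 with NaCl (edgeR adjusted p = 0.683 and 0.876), and without hypoxia-lactate 3 the value with lactate was -0.07 ± 0.19. Canx (calnexin) had log2 changes of 0.31 ± 0.19 and 0.18 ± 0.19, and Uggt1, the glucosyltransferase that recognises misfolded glycoproteins, 0.15 ± 0.16 and -0.14 ± 0.16, in the same order. Per kilobase of exon, Calr had the highest level of the 33 genes in normoxia-NaCl, 262 CPM, followed by Hspa5 with 110, Pdia3 with 96.5, Xbp1 with 76.3 and Hsp90b1 with 73.7 CPM.

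Of the other lumenal proteins induced by ER stress, Creld2, a disulphide-rich secreted protein, had the largest log2 change after Ero1l for hypoxia with lactate. It stood at 31.4, 31.9 and 72.7 CPM in hypoxia-lactate, 20.9, 25.2 and 21.4 CPM in hypoxia-NaCl, 23.8, 24.5 and 20.0 CPM in normoxia-lactate, and 29.9, 30.1 and 23.2 CPM in normoxia-NaCl. All 3 hypoxia-lactate libraries were above all the others, the third far above. The log2 change for hypoxia was 0.99 ± 0.31 with lactate and -0.30 ± 0.30 with NaCl (edgeR adjusted p = 0.239 and 0.970). Without hypoxia-lactate 3 these were 0.47 ± 0.17 and -0.31 ± 0.15 (edgeR adjusted p = 0.236 and 0.303). Sdf2l1, a BiP cofactor, and Manf, a secreted survival factor that binds BiP, had log2 changes of 0.16 ± 0.22 and -0.10 ± 0.21 with lactate and -0.30 ± 0.22 and -0.11 ± 0.21 with NaCl, and exons of Dcaf1 and Rbm15b overlap those of Manf.

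Among the stress sensors, Atf6, the membrane-bound transcription factor released by cleavage in the Golgi, was higher in every hypoxia library. It stood at 235, 229 and 474 CPM in hypoxia-lactate and 213, 201 and 193 CPM in hypoxia-NaCl, against 169, 166 and 188 CPM in normoxia-lactate and 175, 160 and 171 CPM in normoxia-NaCl. The averaged hypoxia effect was 0.55 ± 0.17 on the log2 scale with all libraries (edgeR adjusted p = 0.164). Without hypoxia-lactate 3 it was smaller, 0.33 ± 0.09, and passed the threshold (edgeR adjusted p = 0.0440). With Ero1l and Dnajb9 this made 3 of 33 genes called without that library, against 7.59% of all genes then tested.

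Ern1 (IRE1), the sensor kinase and RNase, stood at 107, 128 and 74.3 CPM in hypoxia-lactate, 107, 121 and 103 CPM in hypoxia-NaCl, 93.7, 88.2 and 92.5 CPM in normoxia-lactate, and 55.3, 92.7 and 105 CPM in normoxia-NaCl. Its groups overlapped, with an averaged effect of 0.28 ± 0.17 on the log2 scale (edgeR adjusted p = 0.480). Eif2ak3 (PERK), the sensor kinase that phosphorylates eIF2α, stood at 31.5, 45.2 and 54.8 CPM in hypoxia-lactate, 38.6, 42.5 and 34.2 CPM in hypoxia-NaCl, 38.1, 41.4 and 40.4 CPM in normoxia-lactate, and 35.5, 46.1 and 41.1 CPM in normoxia-NaCl. Its groups overlapped too, with an averaged effect of 0.02 ± 0.15 (edgeR adjusted p = 0.972). Xbp1, whose messenger IRE1 splices, stood at 310, 323 and 207 CPM in hypoxia-lactate, 278, 316 and 212 CPM in hypoxia-NaCl, 231, 279 and 234 CPM in normoxia-lactate, and 288, 246 and 209 CPM in normoxia-NaCl. The averaged effect was 0.15 ± 0.16 (edgeR adjusted p = 0.715), with overlapping groups. Counts per gene do not separate spliced from unspliced Xbp1, nor do they show cleavage of ATF6 or phosphorylation of the kinases.

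Genes of ER-associated degradation, which draws misfolded proteins out to the proteasome, gave no call by edgeR with all libraries, while limma-voom with quality weights called Sel1l for the averaged hypoxia effect. Sel1l, the adaptor of the ubiquitin ligase encoded by Syvn1, was the one whose 6 hypoxia libraries all lay above the 6 normoxia libraries, at 260, 270 and 569 CPM in hypoxia-lactate and 246, 257 and 268 CPM in hypoxia-NaCl, against 211, 214 and 228 CPM in normoxia-lactate and 223, 206 and 217 CPM in normoxia-NaCl. Its averaged effect was 0.50 ± 0.18 on the log2 scale with all libraries and 0.27 ± 0.09 without hypoxia-lactate 3 (edgeR adjusted p = 0.215 and 0.0892). Syvn1 (HRD1), Edem1, a lectin that marks misfolded glycoproteins, and Herpud1, which joins the ligase complex, had averaged effects of 0.01 ± 0.13, 0.14 ± 0.12 and -0.19 ± 0.17. The Derlin genes Derl1 and Derl2 and the Derlin partner Selenos had averaged effects of -0.27 ± 0.15, -0.05 ± 0.15 and -0.05 ± 0.17, none past the threshold. Exons of Mrpl49 and Mis12 overlap those of Syvn1 and Derl2 on the opposite strand.

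Derl3, the third Derlin, was near the limit of detection. It stood at 0.482, 0.413 and 0 CPM in hypoxia-lactate, 0.550, 0.994 and 0.450 CPM in hypoxia-NaCl, 0.208, 0.158 and 0.156 CPM in normoxia-lactate, and 1.14, 0.764 and 0.606 CPM in normoxia-NaCl. In normoxia all 3 lactate libraries lay below all 3 NaCl libraries, a log2 change of -2.23 ± 0.83 (edgeR adjusted p = 1.00). Of the translocon genes, Sec61b, a subunit of the protein-conducting channel, averaged 31.5 ± 22 CPM in hypoxia-lactate, 37.0 ± 2.5 CPM in hypoxia-NaCl, 47.2 ± 16 CPM in normoxia-lactate and 46.7 ± 5.1 CPM in normoxia-NaCl (SD, n = 3 each). Hypoxia-lactate 3 held 5.93 CPM of it, against 46.3 and 42.4 CPM in the other hypoxia-lactate libraries. Ssr1, a subunit of the translocon-associated TRAP complex, had the smallest SE of the 33 genes and changed by 0.06 ± 0.15 with lactate and 0.05 ± 0.15 with NaCl.

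Counted by overlap alone, 7 of the 33 genes (21.2%) had hypoxia and normoxia libraries apart with lactate, against 19.6% of all tested genes, and 7 (21.2%) with NaCl, against 24.7%. With lactate these were Hspa5, Pdia4, Ero1l, Canx, Creld2, Atf6 and Sel1l, all higher in hypoxia. With NaCl, Dnajb9, Ero1l, Ero1lb, Atf6 and Sel1l were higher and Calr and Sec61b lower in hypoxia. In both settings at once, 6 libraries against 6, Ero1l, Atf6 and Sel1l lay apart, 3 of 33 (9.09%) against 3.68% of all tested genes. The shares for each oxygen comparison were close to the background, and the averaged count rests on 3 genes.

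The effect of lactate was tested at each oxygen level. None of the 33 genes passed the threshold in hypoxia or in normoxia by edgeR, DESeq2 or limma-voom with quality weights, and over all genes 0% did in edgeR at either oxygen level. DESeq2 called 0.776% of all genes in hypoxia and 0.0786% in normoxia, and limma-voom 0.109% and 0.0753%. At an unadjusted p under 0.05 in edgeR, 4 of the 33 genes (12.1%) were higher with lactate in hypoxia (Ero1l, Dnajb11, Creld2 and Atf6) and 0 lower, beside 7.31% and 4.08% of all genes. In normoxia 0 were higher and 1 (3.03%), Derl3, was lower, beside 0.602% and 0.951%. In hypoxia the changes of Creld2, Dnajb11 and Atf6 were 1.01 ± 0.31, 0.68 ± 0.26 and 0.63 ± 0.25 on the log2 scale (edgeR adjusted p = 0.432 for each), and without hypoxia-lactate 3 they were 0.50 ± 0.17, 0.21 ± 0.13 and 0.20 ± 0.13. Of the 33 genes 21 were on the positive side in hypoxia (against 47.5% of all genes), with a median log2 change of 0.19 beside -0.03. Without hypoxia-lactate 3, 29 of 33 were on the positive side (87.9%, against 50.9% of all genes), with a median of 0.14 beside 0.01. The 33 genes share the same few libraries, so their signs are not independent of each other. Libraries apart numbered 6 of 33 (18.2%) in hypoxia, against 16% of all genes, and 1 of 33 (3.03%) in normoxia, against 11.8%. In edgeR without hypoxia-lactate 3, fewer genes were higher with lactate in hypoxia at an unadjusted p under 0.05. They were 1 disulphide isomerase or oxidase and 1 other lumenal stress-induced protein. In each role 0 were lower, beside 638 higher and 780 lower of 15088 genes.

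**Figure D3:**
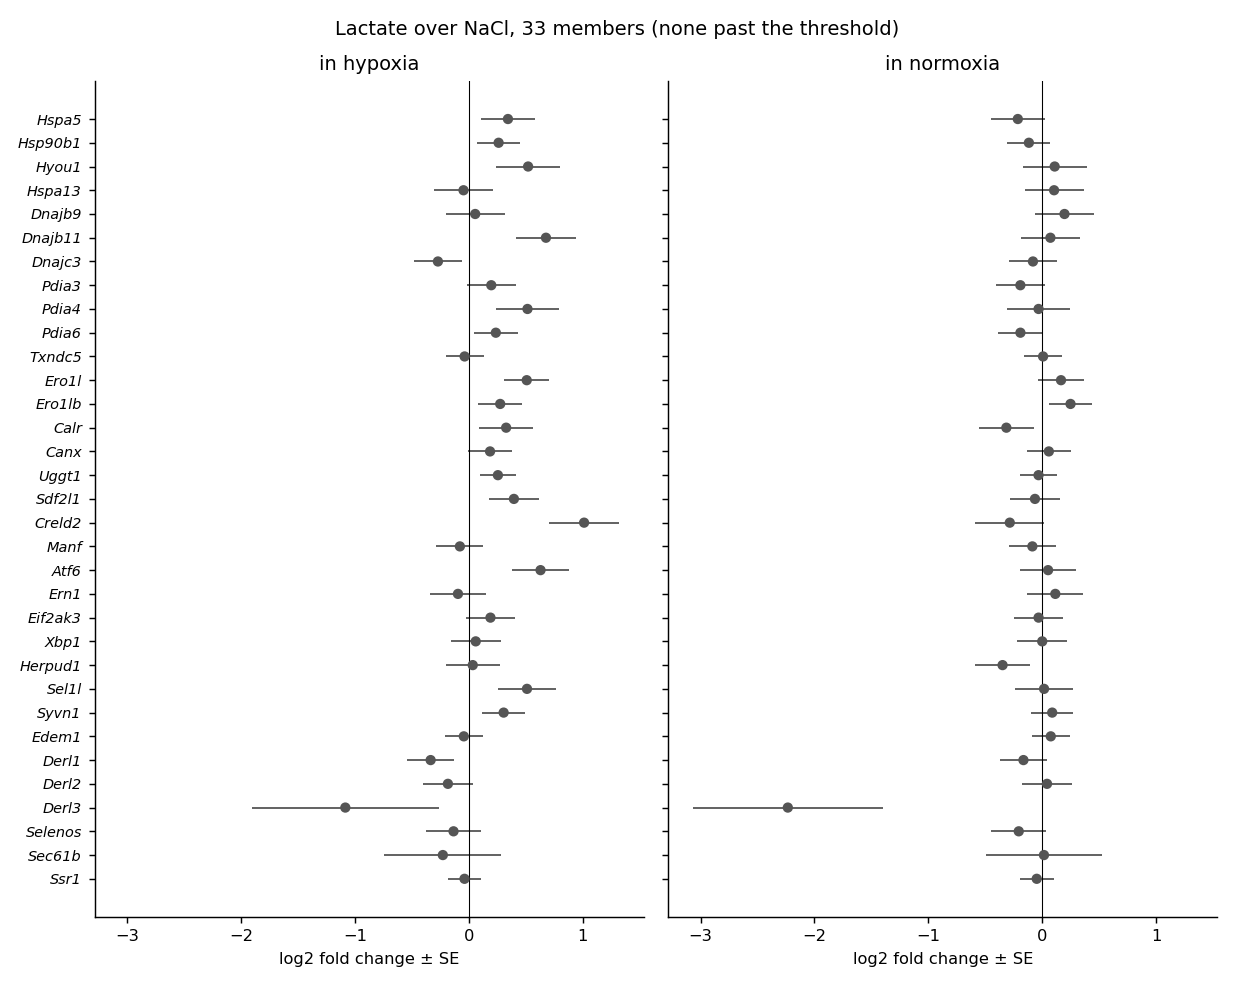
Log2 fold change of each of the 33 genes (rows) for lactate over NaCl in hypoxia (left panel) and in normoxia (right panel), from the fit over all 12 libraries, 3 per group. Points are fitted values and bars their SE. No gene passed the threshold, the low gene Derl3 has the widest bars, and Creld2 lies at 1.01 in hypoxia and -0.29 in normoxia.

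In the interaction, the hypoxia change with lactate minus that with NaCl, none of the 33 genes passed the threshold by edgeR, DESeq2 or limma-voom. Of all genes 0% passed it in edgeR with or without hypoxia-lactate 3, 0.00693% in DESeq2 and 0.0137% in limma-voom. At an unadjusted p under 0.05 in edgeR, 1 of the 33 genes (3.03%), Creld2, was higher and 0 lower, beside 1.68% and 1.72% of all genes. Creld2 had the largest value, 1.30 ± 0.43 on the log2 scale (edgeR adjusted p = 0.902), and 0.78 ± 0.23 without hypoxia-lactate 3. Calr had 0.64 ± 0.34 and Hspa5 0.56 ± 0.33, both with edgeR adjusted p = 0.902. Positive values numbered 24 of 33 (against 47.9% of all genes), with a median of 0.22 beside -0.04 over all genes. Without hypoxia-lactate 3 they numbered 30 of 33 (against 49.4%), with a median of 0.15 beside 0.00. The same libraries enter this value and the lactate comparisons, so the counts are not independent of each other, and the genes share libraries.

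Both treatments against neither gave 1 call, Ero1l, among the 33 genes. DESeq2 and limma-voom with quality weights each called 3 (9.09%), beside 10% and 7.38% of all genes. At an unadjusted p under 0.05 in edgeR 8 (24.2%) were higher and 1 (3.03%), Derl1, was lower, beside 11.8% and 8.91% of all genes, with Atf6 nearest to the threshold after Ero1l, at 0.89 ± 0.25 on the log2 scale (edgeR adjusted p = 0.0850), and 0.46 ± 0.13 without hypoxia-lactate 3 (edgeR adjusted p = 0.0542). Libraries of the groups lay apart in 9 of 33 genes (27.3%), against 20.6% of all genes: Dnajb9, Dnajb11, Ero1l, Ero1lb, Creld2, Atf6 and Sel1l were higher and Derl1 and Derl3 lower in hypoxia-lactate. Without hypoxia-lactate 3 Ero1l was again the single call, while 6.86% of all genes were called. In that fit the other shares were 0.862% for hypoxia with lactate, 1.79% for hypoxia with NaCl, 0.0398% for lactate in hypoxia and 0.0331% for lactate in normoxia, and the counts of the 33 genes were 1, 1, 0 and 0 in that order. At an unadjusted p under 0.05 in the same edgeR fit, the genes higher for both against neither were fewer. They were 1 J protein, 2 disulphide isomerases or oxidases, 2 of the sensors and Xbp1, and 1 degradation gene. In each role 0 were lower, beside 1901 higher and 2036 lower of 15088 genes.

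Since hypoxia-lactate 3 weighed on many of these values, its place was counted. It was the highest of the 12 libraries in 14 of the 33 genes (42.4%, against 28.1% of all tested genes) and the lowest in 10 (30.3%, against 43.4%). Against the mean of hypoxia-lactate 1 and 2 it was over 1.5-fold higher in 7 genes (21.2%, against 26.8% of all tested genes) and over 1.5-fold lower in 9 (27.3%, against 47.3%). Creld2, Dnajb11, Sel1l and Atf6 were 2.30, 2.17, 2.15 and 2.04 times that mean, and Sec61b was 0.134 times it. The summed level of the 33 genes was 6384 CPM in hypoxia-lactate 3, against 4619 and 5321 CPM in hypoxia-lactate 1 and 2, 4188 to 5016 CPM in hypoxia-NaCl, 4149 to 4564 CPM in normoxia-lactate and 4326 to 4860 CPM in normoxia-NaCl.

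**Figure D4:**
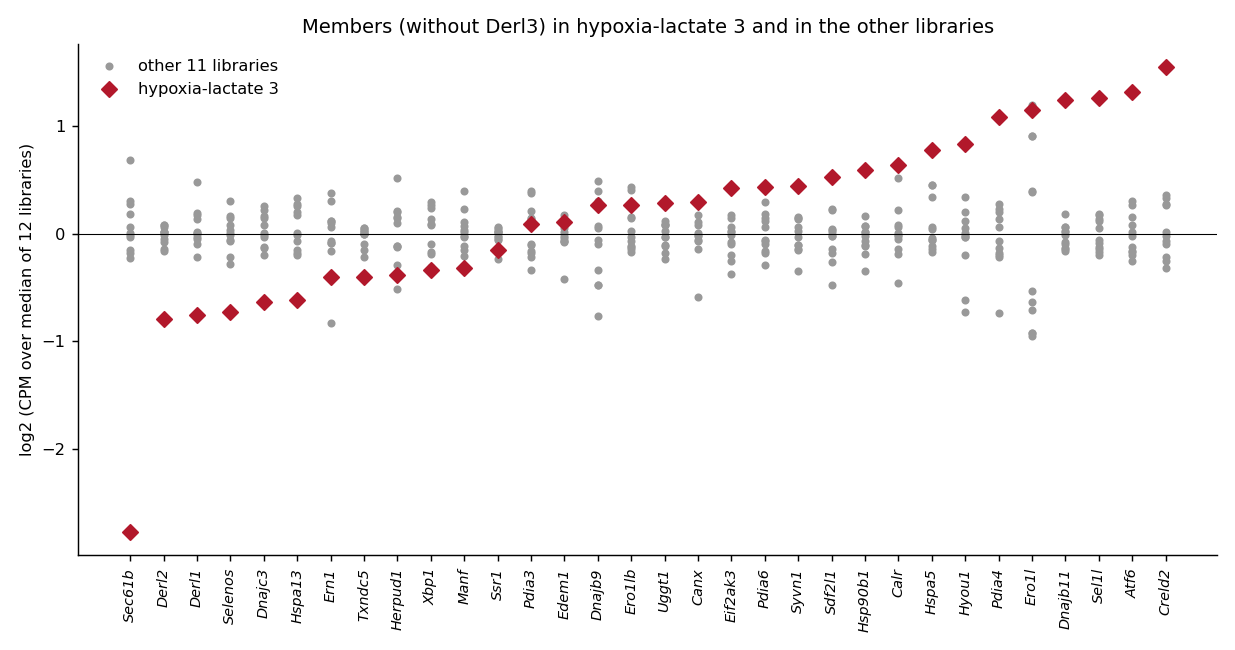
Level of 32 of the 33 genes (Derl3, at 0 in 1 library, is left out) in each library over that gene's median of 12 libraries, on a log2 axis. Red diamonds are hypoxia-lactate 3, grey points the other 11 libraries, and genes are ordered by the diamonds. Creld2, Atf6, Sel1l and Dnajb11 in hypoxia-lactate 3 lie far above the other libraries and Sec61b far below, whereas for Ero1l it lies among the other hypoxia libraries.

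Promoter windows of 300 bases, from 250 before to 50 after the annotated start, were found for 28 of the 33 genes in the RefSeq table, and those of Hyou1, Hspa13, Manf, Atf6 and Derl1 were not used here. The ER stress response element was in 10 of the 28 (35.7%), namely Calr, Canx, Creld2, Derl3, Dnajc3, Ero1lb, Hsp90b1, Hspa5, Pdia6 and Syvn1, against 0.119% of all windows. A second element, ERSE-II, searched as ATTGGNCCACG on both strands, was in Dnajb11 and Herpud1 and in 0.0365% of all windows. The core of the UPR element, TGACGTGG, was in Txndc5 and in 0.676% of windows. It overlaps the letters of the ACGTG core. The hypoxia response element core was in 21 of the 28 (75.0%) against 43.8% of windows, in the form ACGTG in 11 genes (39.3% against 19.6%) and in the form GCGTG in 19 (67.9% against 32.4%). The ER stress response element overlaps this core where CCACG is followed by C on the other strand, as in Calr and Hsp90b1. Derl2 and Txndc5 have several windows, and a gene was counted if any of its windows matched, while the share of all windows is per window. The genes were listed for their part in the unfolded protein response, so the shares of its elements describe the list and are not a result of these libraries.

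**Figure D5:**
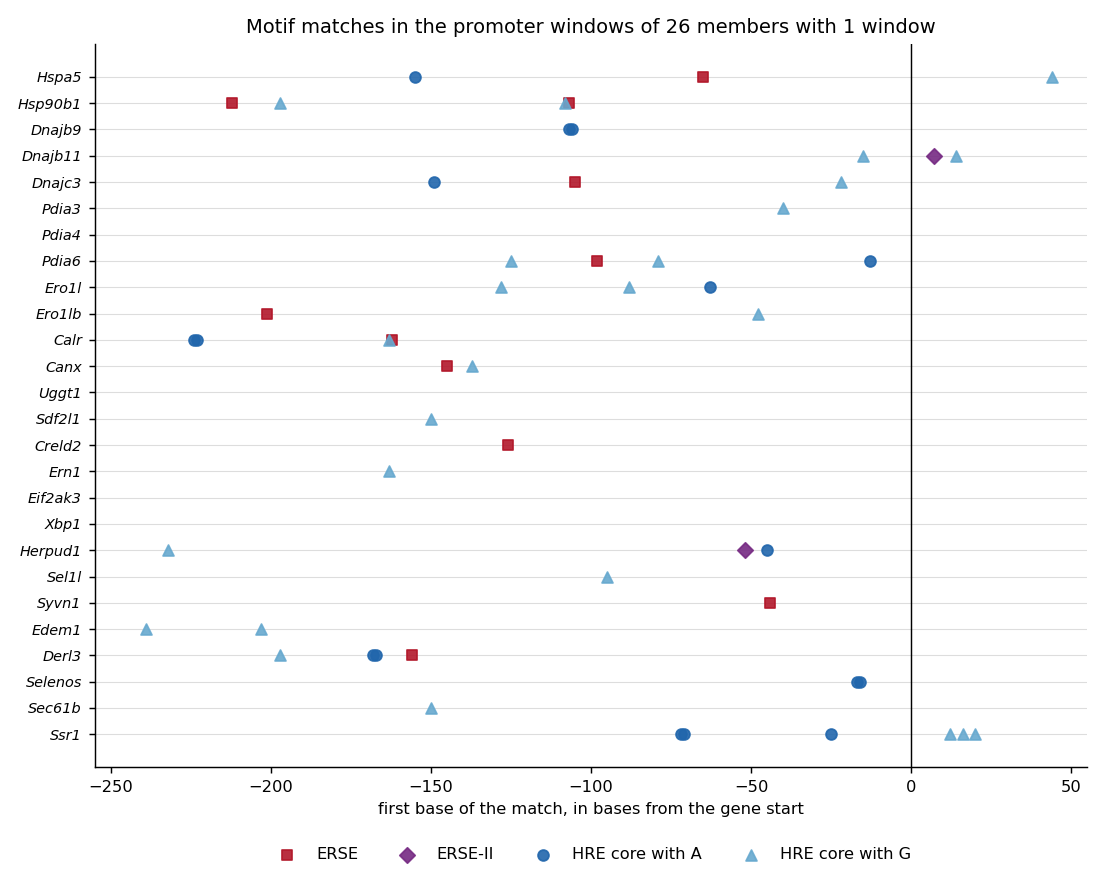
Position of motif matches in the windows of the 26 genes with a single window, in bases from the annotated start (vertical line). Squares are the ER stress response element (ERSE), diamonds ERSE-II, circles and triangles the hypoxia response element (HRE) core with A or G as its first letter. Ero1l holds 3 HRE cores and no ERSE, and Hsp90b1 holds 2 ERSE matches.

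The 10 genes that hold the ER stress response element gave 0 calls by edgeR in each of the 7 comparisons with all libraries. Their log2 changes for hypoxia with NaCl ran from -0.42 (Calr) to 0.18 (Canx), with a median of -0.07, and for hypoxia with lactate from -0.01 (Dnajc3) to 0.99 (Creld2), with a median of 0.28. Without hypoxia-lactate 3 there were again 0 calls. The range with lactate was then -0.07 (Calr) to 1.34 (Derl3, near the limit of detection), with a median of 0.21, and that with NaCl -0.42 (Calr) to 0.18 (Canx), with a median of -0.08.

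A wider list of 111 genes of the same pathway, which holds none of the 33, was counted beside them, and 110 of its genes were tested. By edgeR 0 of 110 were called in any of the 7 comparisons with all libraries. At an unadjusted p under 0.05 there were 9 higher (8.18%, beside 9.3% of all genes) and 0 lower for hypoxia with lactate, and 2 higher (1.82%, beside 3.29%) and 3 lower (2.73%, beside 3.2%) for hypoxia with NaCl. For lactate in hypoxia there were 12 higher (10.9%, beside 7.31%) and 1 lower (0.909%, beside 4.08%), and for lactate in normoxia 0 in either direction. Both against neither had 9 higher (8.18%, beside 11.8%) and 2 lower (1.82%, beside 8.91%). The interaction had 2 higher (1.82%, beside 1.68%) and 0 lower, and the averaged effect 7 higher (6.36%, beside 8.48%) and 5 lower (4.55%, beside 6.69%). These shares were near or below those of all genes, apart from the higher ones for lactate in hypoxia. DESeq2 called 5 higher for both against neither (4.55%, beside 10% of all genes) and 1 higher for the averaged effect (0.909%, beside 5.95%). Limma-voom with quality weights called 9 higher and 6 lower for the averaged effect (13.6% together, beside 15.1%) and 4 higher and 4 lower for both against neither (7.27%, beside 7.38%). None of these shares was above that of all genes. The median log2 change of the list was 0.10 for hypoxia with lactate and -0.06 for hypoxia with NaCl.

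Without hypoxia-lactate 3 the averaged effect gave 4 calls in that list, 3.64% of it, below the 7.59% of all genes called in that fit. Crebrf, a regulator that restrains the related factor CREB3, was higher by 0.70 ± 0.13 on the log2 scale (edgeR adjusted p = 0.00660), and Tram2, a translocation-associated membrane protein, by 0.40 ± 0.10 (edgeR adjusted p = 0.0244). Ssr2, a TRAP subunit, changed by -0.44 ± 0.09 and Ddost, a subunit of the oligosaccharyltransferase, by -0.54 ± 0.14 (edgeR adjusted p = 0.0141 and 0.0381). With all libraries these were 0.58 ± 0.18, 0.70 ± 0.22, -0.70 ± 0.40 and -0.44 ± 0.16, none past the threshold. Ssr2 stood at 2.97 CPM in hypoxia-lactate 3, against 32.8 and 36.2 CPM in the other hypoxia-lactate libraries.

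Also without hypoxia-lactate 3, Crebrf was higher for hypoxia with NaCl by 0.85 ± 0.17 (edgeR adjusted p = 0.0272). Both against neither then gave 8 calls, 7.27% of the list and near the 6.86% of all genes. Of these 2 were higher, Crebrf at 0.74 ± 0.19 and Stt3b, a catalytic subunit of the oligosaccharyltransferase, at 0.54 ± 0.13 (edgeR adjusted p = 0.0345 and 0.0280). The other 6 were lower, of which Ddost, at -0.80 ± 0.21, Dpagt1, the first enzyme of the sugar chain's assembly, at -0.78 ± 0.20, and Cnpy3, a chaperone of Toll-like receptors, at -0.73 ± 0.17, had the largest changes (edgeR adjusted p = 0.0411, 0.0334 and 0.0238). Sil1, a BiP exchange factor, had -0.70 ± 0.19 and Erp29, a disulphide isomerase relative, -0.62 ± 0.16 (edgeR adjusted p = 0.0428 and 0.0381). With all libraries the means of Sil1 and Erp29 were higher in hypoxia-lactate, 38.0 and 362 CPM against 32.9 and 357 CPM in normoxia-NaCl. Hypoxia-lactate 3 was the highest of the 12 libraries for both, at 73.6 and 620 CPM. The means of Ddost and Cnpy3 stayed lower, 139 and 121 CPM against 213 and 164 CPM.

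Genes of the PERK branch were not called in either fit. The transcription factor Atf4, its targets Ddit3 (CHOP) and Trib3, and Ppp1r15a (GADD34), which reverses the phosphorylation of eIF2α, had averaged hypoxia effects of 0.01 ± 0.18, 0.10 ± 0.30, 0.30 ± 0.35 and 0.41 ± 0.22 on the log2 scale. Chac1, a glutathione-degrading enzyme at 0 to 8.67 CPM, had -0.69 ± 0.73. Ddit3 stood at 25.9, 46.3 and 10.6 CPM in hypoxia-lactate, 22.9, 32.9 and 20.9 CPM in hypoxia-NaCl, 23.7, 28.2 and 20.3 CPM in normoxia-lactate, and 17.5, 28.7 and 30.8 CPM in normoxia-NaCl, so its groups overlapped.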

How the data were processed

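Polyadenylated RNA of 12 cultured macrophage samples was sequenced on an Ion Proton instrument, per the labels' protocols. The authors deposited raw read counts per Ensembl gene, and BWA, HTSeq and build mm9 are listed in the submitters' processing notes, with no version. Which annotation release was counted, and whether by strand, is not given in the sources used here. Overlapping genes (10 of the 33 members, 6 of them with a protein-coding gene) and near-identical copies are therefore uncertain. The 5 counters that name no gene were left out of library sizes and tests. Their reads, as a share of all reads, were 13.7% to 22.0% in no gene, 8.34% to 18.4% with several alignments, 2.02% to 5.48% without an alignment, 0.361% to 0.442% ambiguous and 0% of low quality.

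Symbols came from GENCODE by identifier (GRCm38), and exon lengths from the same annotation gave CPM per kilobase. edgeR 4.0.16 in R 4.3.3 fitted all 12 libraries with 1 mean per group (TMM scaling, filterByExpr, quasi-likelihood F test, Benjamini-Hochberg adjustment over the tested genes, threshold 0.05). SE values were computed back from the log2 change and F. Alternatives were RLE scaling, no low-count filter, DESeq2 1.42.0, limma-voom (limma 3.58.1) with quality weights, a block for the library number, fitting the compared groups alone, and omitting libraries. Library numbers come from the labels. For hypoxia with NaCl, libraries with the same number deviated together, at correlations of 0.138 to 0.315, all above the limit of 0.1 for pairing. The main fit nevertheless had no block for the number, so its values for hypoxia with NaCl ignore any pairing, and the block was an alternative only. Elsewhere not every number passed the limit, but number 2 passed it in every comparison, at 0.126 to 0.333. Values ran from 0.023 to 0.126 for hypoxia with lactate and from 0.025 to 0.239 for lactate in normoxia. For lactate in hypoxia they ran from 0.082 to 0.257, and for both against neither from -0.069 to 0.333.

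A member has its value given in every library if it passed the threshold in a comparison with or without hypoxia-lactate 3, was among the 3 largest changes of a comparison of groups whose libraries do not overlap, or was a sensor, Xbp1, Hspa5, Hsp90b1 or Ero1l. Values of Ero1lb, Pdia4, Sel1l, Sec61b and Ddit3 were given after they were seen. Members, lists and rules were chosen with earlier results of these data known. Precision was set by 3 libraries per group, and Derl3 had at most 1.14 CPM.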

Additional observations from a re-analysis of the deposited data

How the results depend on the processing

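Where Ero1l, Dnajb9, Atf6 or Xbp1 was called, the direction of the change was the same in all alternatives run. Sel1l and the genes of the wider list were not followed over the alternatives in this way. The count of members called, 1 with all libraries for hypoxia with NaCl, hypoxia with lactate, both against neither and the averaged effect, moved to 2, 2, 3 and 5 with limma-voom weights (the averaged calls were Ero1l, Dnajb9, Atf6, Sel1l and Xbp1), which is 6.06%, 6.06%, 9.09% and 15.2% of the members beside 3.59%, 5.04%, 7.38% and 15.1% of all genes. DESeq2 gave 3 (9.09%) for both against neither and 2 (6.06%) for the averaged effect, beside 10% and 5.95%. A fit of only the groups compared gave 0 for hypoxia with lactate and 0 for both against neither, with Ero1l at log2 changes of 1.77 (edgeR adjusted p = 0.133) and 1.94 (edgeR adjusted p = 0.0523). With neither hypoxia-lactate 3 nor normoxia-NaCl 1 in the fit, 3 (9.09%) and 4 (12.1%) members were called for both against neither and the averaged effect. Of all 15243 genes then tested, 481 were higher and 431 lower for the first, and 722 and 640 for the second. The replicate block with hypoxia-lactate 3 left out gave 2 (6.06%) and 3 (9.09%) members. It called 1015 of 15088 genes higher and 1101 lower for both against neither, and 1047 and 1164 for the averaged effect. The replicate block alone changed no call, with Ero1l at an edgeR adjusted p of 0.0146 for hypoxia with NaCl, 0.00610 with lactate, 0.00190 for both against neither and 0.000485 for the averaged effect. Over single libraries left out, the counts ran from 0 to 1 for hypoxia with NaCl and with lactate. They ran from 1 to 2 for both against neither (2 without hypoxia-lactate 2) and from 1 to 3 for the averaged effect (3 without hypoxia-lactate 3). Without hypoxia-lactate 2, 467 of 15011 genes were higher and 223 lower for both against neither. Without hypoxia-lactate 3, 7.59% of all genes were called for the averaged effect. Over the single omissions Ero1l ranged from 1.24 to 1.52 with NaCl and from 1.67 to 1.86 with lactate. The causes of these moves were not tested. The lactate comparisons and the interaction had 0 members called in every alternative run.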

Other observations

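Within hypoxia-NaCl, library 2 held the highest level of 24 of the 33 genes (72.7%), against 32.0% of all tested genes. In the other groups no library was highest for more than 15 of them. In hypoxia-lactate, libraries 2 and 3 were each highest for 15 (45.5%, against 33.7% and 37.2% of all genes), in normoxia-lactate libraries 2 and 3 were each highest for 13 (39.4%, against 37.0% and 38.7%), and in normoxia-NaCl libraries 1 and 2 were highest for 14 and 15 (42.4% and 45.5%, against 39.5% and 32.4%). The summed level of the 7 neutrophil markers was 1.39, 26.1 and 2.57 CPM in hypoxia-NaCl 1, 2 and 3. It was 0.241, 21.6 and 34.9 CPM in hypoxia-lactate (in library 3 all of it S100a8), 1.27, 23.3 and 2.09 CPM in normoxia-lactate, and 5.16, 40.7 and 1.43 CPM in normoxia-NaCl. In the libraries numbered 2, S100a9 stood at 10.8 (hypoxia-lactate), 12.7 (hypoxia-NaCl), 10.5 (normoxia-lactate) and 18.0 CPM (normoxia-NaCl). In all libraries numbered 1 or 3 it was at most 0.997 CPM. Whether the number marks a shared preparation of cells was not tested, nor was the part of neutrophil RNA in the members' levels.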
